A study of Homo sapiens with 8 samples.

Results

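The genes described here encode the nuclear part of mitochondrial complex I. Members were all rows of both deposited count tables whose symbol starts with NDUF, and these were 46 of 18638 gene models. They comprised 7 core subunits, 29 accessory subunits, 7 assembly factors (the NDUFAF genes) and 3 other rows. The other rows were NDUFA4, now counted with complex IV, its paralogue NDUFA4L2, and the read-through model NDUFC2-KCTD14. The mitochondrially encoded subunits had 0 rows in the tables, and so did the accessory subunit NDUFC2 apart from that read-through model.

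Complex I is the entry point of the respiratory chain. It oxidises NADH, passes the electrons through a flavin and a chain of iron-sulphur clusters to ubiquinone, and pumps protons across the inner mitochondrial membrane. The core subunits carry out this chemistry, the accessory subunits surround and stabilise them, and the assembly factors help to build the complex without being part of the finished enzyme. In colorectal epithelium, as in other tissues, complex I contributes to the proton gradient that drives ATP synthesis.

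Factory-seq was used to measure nascent RNA in human colorectal cancer cell lines, with 2 libraries in each of 4 groups and 8 in all. The method isolates nuclei, digests DNA and collects the RNA that is released from transcription sites by caspase treatment. Reads were counted over whole gene spans, introns included, and levels are given as CPM, counts scaled to a common total with TMM factors. CPM is a share of a library, so the amount of nascent RNA per cell was not measured, and fewer cells of a type and less RNA per cell cannot be told apart.

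All DLD-1 cells had the genotype DLD-1-mAID-mClover-POLR2A with Tet-OsTIR1. The mAID tag sits on POLR2A, the largest subunit of RNA polymerase II, and lets auxin trigger its breakdown once doxycycline has induced the plant protein OsTIR1. The DLD-1 controls had no auxin or doxycycline in their labels, and the other DLD-1 group was labelled as treated with auxin (500 µM for 14 h after 24 h of doxycycline). The HCT116 controls carried the mAID tag on TOP2A and also had no auxin or doxycycline in their labels. The other HCT116 group carried the same tag and was labelled TOP2B-/- (spelled TO2B-/- in the genotype field), and its titles read control while its treatment field reads 14 h of auxin, for which the protocol gives the same dose and doxycycline. By these labels, auxin and doxycycline cannot be told apart in DLD-1. Genotype, auxin and doxycycline cannot be told apart in HCT116. All libraries were titled asynchronous. Sources did not state whether a line was 1 clone, whether controls received doxycycline, whether G1 cells were sorted here or whether replicates were separate cultures, so p-values measure the spread between these libraries alone.

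The auxin libraries stood apart. Library totals were 62626875 and 36906755 reads in the DLD-1 controls and 14183633 and 10739622 reads after auxin, against 32129400 to 36491540 in HCT116. Reads at the density of genes silent in the other line made up 2.24% and 9.02% of the DLD-1 controls, 39.5% and 59.5% of the auxin libraries, and 0.266% to 3.04% of the HCT116 libraries. DLD-1 results are therefore given with and without subtraction of this background. POLR2A, whose protein is the target in DLD-1, had a log2 fold change of -0.78 (adjusted p = 0.077). After background subtraction its sign changed, to 0.41, and neither value had an adjusted p under 0.05. TOP2B fell by 0.50 on the log2 scale in the group labelled TOP2B-/- (adjusted p = 0.027). In that group TOP2A had -0.09 (adjusted p = 0.466). Degradation acts on the protein, so nascent reads of POLR2A and TOP2A do not check it. Of 12 markers of colorectal epithelium, 7 to 9 reached 10 CPM in each DLD-1 library and 5 in each HCT116 library. At least 2 times the background was reached by 11 and 10 of them in the DLD-1 controls, but by 7 and 5 after auxin, and by 6 to 8 in HCT116. KRT20, VIL1, CDX1, LGR5, CEACAM5 and LGALS4 were under 4 CPM in all HCT116 libraries. The summed level of 8 markers of other cells was 6.22 and 19.6 CPM in the DLD-1 controls and 135 and 126 CPM after auxin, of which PECAM1 made up 97.6 and 72.5 CPM. In the HCT116 controls this sum was 46.5 and 48.6 CPM, of which COL1A1 made up 42.3 and 46.6 CPM. In the group labelled TOP2B-/- it was 36.6 and 31.6 CPM. The part of such reads in the NDUF values was not tested.

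All 46 NDUF genes passed the filter on low counts in both lines. They lay on 21 chromosomes, with spans from 2423 to 207909 bp and a median of 12.3 kb against 23.6 kb for all gene models. Another gene model overlapped 7 of them (NDUFC1, NDUFA1, NDUFA2, NDUFA4L2, NDUFS3, NDUFAF3 and NDUFC2-KCTD14), and since the use of strand was not stated their values may hold reads of the other gene. Their reads made up 0.137% and 0.140% of the DLD-1 controls, 0.157% and 0.147% of the auxin libraries, and 0.177% to 0.192% of the HCT116 libraries. Levels between genes were compared as CPM per kb of counted length. The median control level over the NDUF genes was 1.71 CPM per kb in DLD-1 and 2.48 in HCT116. Core subunits had medians of 2.99 and 3.58 CPM per kb, accessory subunits 1.68 and 2.50, and assembly factors 1.37 and 1.42, in DLD-1 and HCT116 respectively.

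NDUFV1, the flavin-binding subunit at which NADH is oxidised, had the highest level of the 46 genes in both lines. It stood at 12 and 9.19 CPM per kb in the DLD-1 controls and at 16.2 and 20.9 in the HCT116 controls. NDUFB8, a subunit of the membrane arm, was next with 6.83 and 6.0 CPM per kb in DLD-1 and 9.98 and 11.6 in HCT116. NDUFB10, also in the membrane arm, had 5.61 and 6.03 CPM per kb in DLD-1 and 5.86 and 8.03 in HCT116. In DLD-1 the control values of NDUFB8 and NDUFB10 overlapped, while in HCT116 the 3 genes kept their order without overlap.

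The lowest levels were those of NDUFC2-KCTD14, NDUFA4L2 and NDUFA5. NDUFC2-KCTD14 had 0.118 and 0.199 CPM per kb in the DLD-1 controls and 0.111 and 0.0878 in those of HCT116. NDUFA4L2, known as a gene induced in hypoxia, had 0.395 and 0.294 CPM per kb in DLD-1 and 0.113 and 0.112 in HCT116. NDUFA5, an accessory subunit of the ubiquinone-binding module, had 0.529 and 0.686 in DLD-1 and 0.425 and 0.474 in HCT116. These 3 did not overlap in the DLD-1 controls, and in HCT116 the first and second were within 0.03 CPM per kb of each other. NDUFAB1, the mitochondrial acyl carrier protein, had mean control levels of 2.34 and 2.72 CPM per kb in DLD-1 and HCT116, and NDUFA4 had 2.77 and 3.30. Across the 46 genes, control levels in the 2 lines correlated with a Spearman rho of 0.88, as a description over genes that share libraries and gene length.

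**Figure D1:**
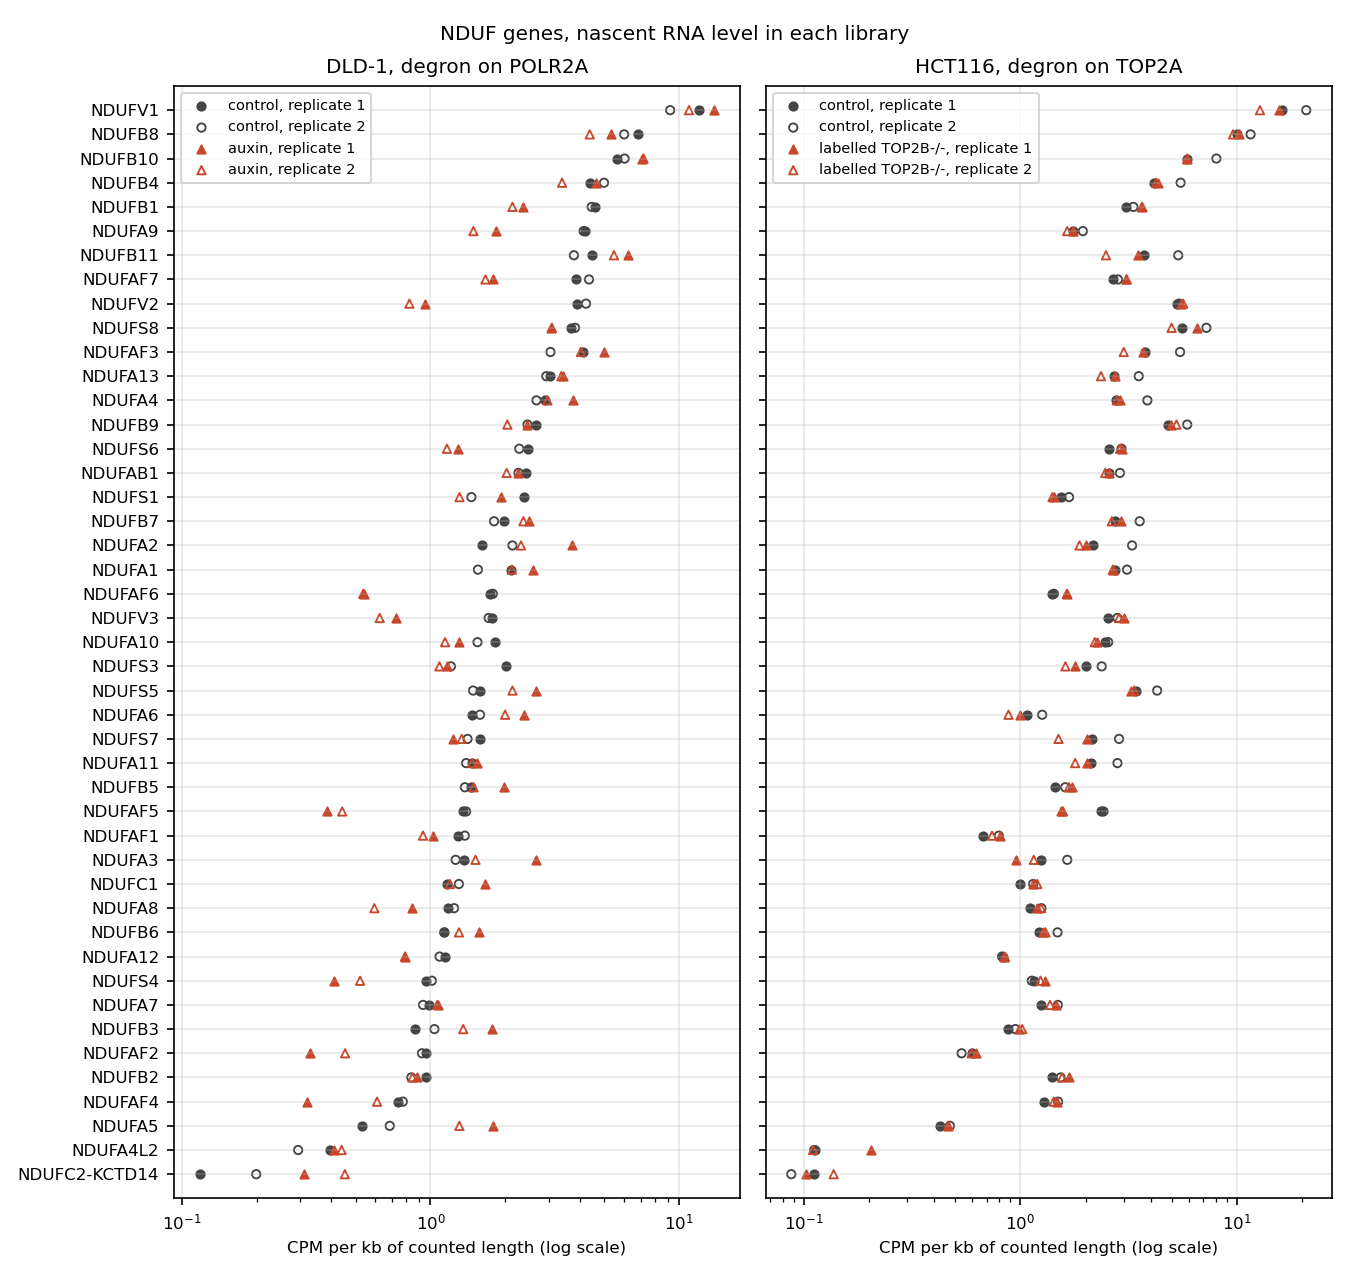
Nascent RNA level of 45 NDUF genes in each library, as CPM per kb of counted length on a log axis, with DLD-1 on the left and HCT116 on the right, and genes ordered by their mean in the DLD-1 controls. Circles are controls, triangles the auxin or TOP2B-/- labelled libraries, filled for replicate 1 and open for replicate 2; NDUFV1 is at the top of both panels, and triangles of NDUFV2 and 4 assembly factors lie far to the left of the circles in the DLD-1 panel.

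Nascent RNA of the NDUF genes after auxin and doxycycline in DLD-1, written as after auxin, was assessed by comparing both auxin libraries with both controls. With the quasi-likelihood test of edgeR and Benjamini-Hochberg adjustment over all 17625 genes tested, 12 of the 46 genes changed, of which 11 fell and 1 rose. Of all genes tested, 67.3% were called, 35.0% lower and 32.2% higher, against 26.1% of the NDUF genes. Without auxin replicate 1 the number of NDUF genes called was 4, and without auxin replicate 2 it was 8, while the share of all genes called was 13.6% and 18.1%. The median log2 fold change of the 46 genes was -0.16, against -0.06 for all genes. CPM of the groups did not overlap in 39 NDUF genes, 18 higher and 21 lower after auxin, against 91.0% of all genes.

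Scaling set the balance of directions. With library totals alone, 27 NDUF genes were called, 21 higher and 6 lower, against 62.0% of all genes (42.8% higher and 19.2% lower), and their median was 0.48 while that of all genes was 0.57. Relative to all genes the NDUF median was -0.09 in both scalings. By DESeq2, 15 NDUF genes were called, against 66.6% of all genes. With upper-quartile factors, 13 were called higher and 8 lower, against 63.0% of all genes (40.1% higher and 22.9% lower). After background subtraction, 25 were called higher and 7 lower, with a median of 0.87 against -0.16 for all genes, 59.8% of which were called (27.7% higher and 32.1% lower). NDUFV2, NDUFAF5, NDUFAF6 and NDUFA9 were called lower in all 14 fits made, and NDUFA5 was called higher in 13 of 14.

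**Figure D2:**
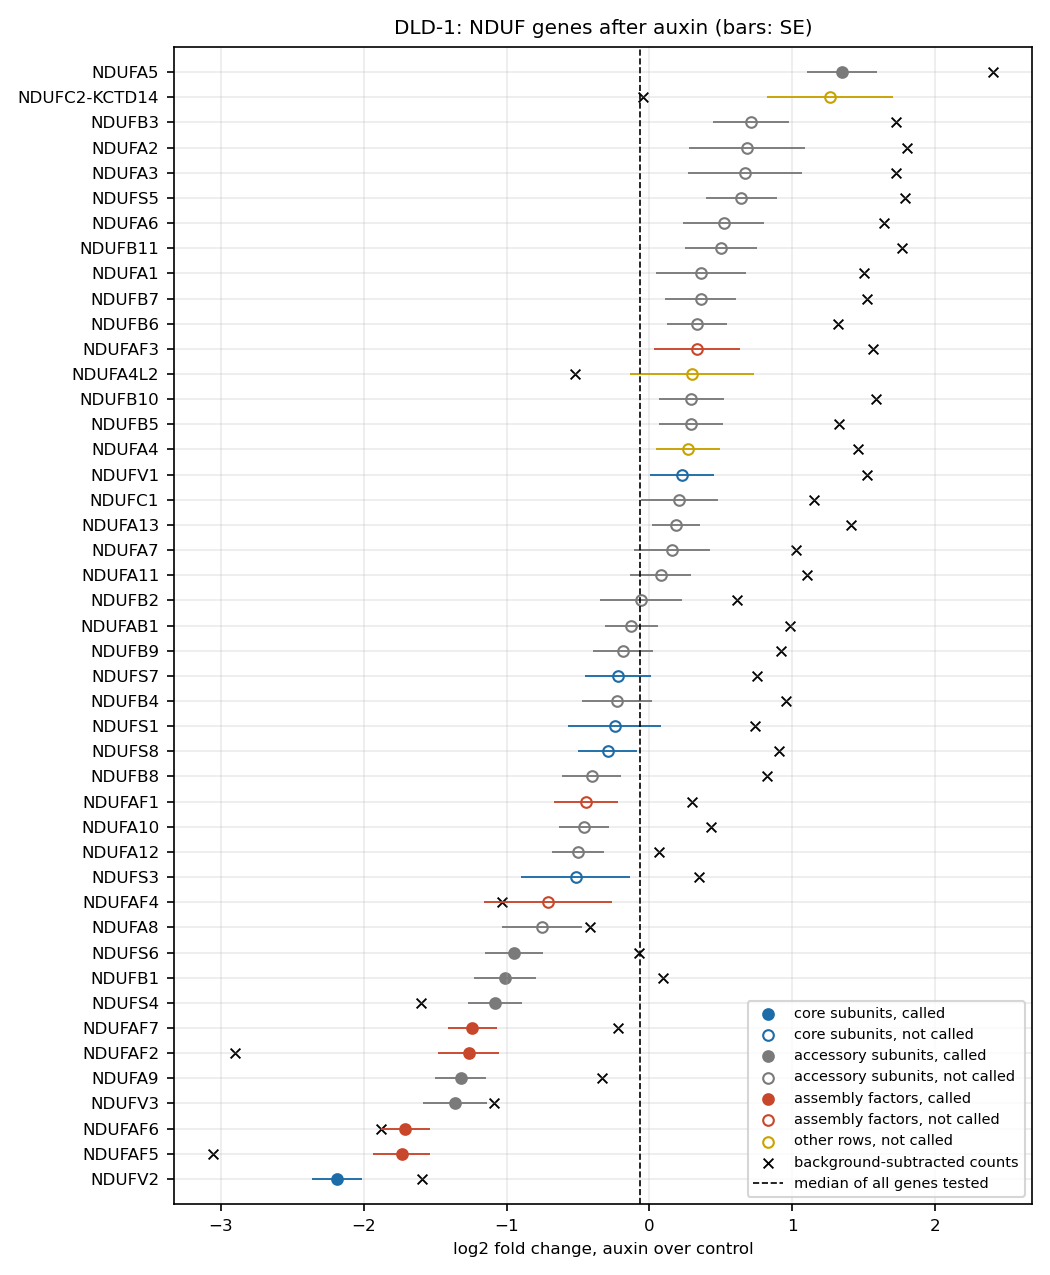
Log2 fold change of 45 NDUF genes in DLD-1, auxin over control, with bars of 1 standard error; filled circles were called at an adjusted p of 0.05, colours mark the group of the gene, and the dashed line is the median of all genes tested (-0.06). Crosses are the values after background subtraction and lie to the right of the circles for most genes, but to the left for 7 genes, NDUFAF2, NDUFAF5 and NDUFS4 among them.

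The 7 core subunits had a median of -0.29. NDUFV2 (chr18:9102630-9134345, plus strand, hg38), which holds an iron-sulphur cluster next to NDUFV1, had 123 and 134 CPM in the controls and 30.2 and 26.1 CPM after auxin. Both auxin libraries were below both controls by a wide margin, and the gene fell 4.56-fold (log2 fold change -2.19 ± 0.17 SE, adjusted p = 0.0042), the largest fall among the 46 genes with the counts as deposited. NDUFV1, its partner in the NADH-oxidising module, had 68.0 and 52.3 CPM in the controls and 78.8 and 62.2 CPM after auxin, and these groups overlapped (0.23 ± 0.22, adjusted p = 0.391). After background subtraction NDUFV2 was still called lower, at -1.59, and NDUFV1 was called higher, at 1.52. The difference between both genes was not tested.

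Further core subunits described here were not called. NDUFS1, the largest subunit and a carrier of iron-sulphur clusters, had 86.2 and 53.2 CPM in the controls and 70.2 and 47.7 CPM after auxin, and control 2 lay between both auxin libraries. The log2 fold changes were -0.24 ± 0.33 for NDUFS1, -0.52 ± 0.38 for NDUFS3, -0.22 ± 0.23 for NDUFS7 and -0.29 ± 0.21 for NDUFS8, with adjusted p of 0.528, 0.271, 0.431 and 0.254. All 4 had values above 0 after background subtraction (0.74, 0.35, 0.75 and 0.91), and NDUFS8, a carrier of iron-sulphur clusters, was then called.

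Among the 29 accessory subunits, 5 fell, 1 rose and 23 were not called, against 35.0% of all genes called lower and 32.2% higher. The median of these subunits was 0.16. NDUFA9, which sits where the membrane arm and the matrix arm meet, had 161 and 159 CPM in the controls and 70.4 and 57.2 CPM after auxin. The groups were far apart and NDUFA9 fell 2.50-fold (-1.32 ± 0.18, adjusted p = 0.0068), with a smaller fall of 0.33 on the log2 scale after background subtraction. NDUFV3, an accessory subunit of the NADH-oxidising module, had 28.9 and 28.1 CPM in the controls and 11.9 and 10.2 CPM after auxin. Its replicates lay close together in both groups, and it fell 2.57-fold (-1.36 ± 0.22, adjusted p = 0.0105), though it was not called without auxin replicate 1 (adjusted p = 0.064) or auxin replicate 2 (adjusted p = 0.062). NDUFS4, a subunit whose loss causes Leigh syndrome, fell from 118 and 124 CPM to 50.4 and 64.0 CPM (-1.08 ± 0.19, adjusted p = 0.012). NDUFB1, of the membrane arm, fell from 26.2 and 25.3 CPM to 13.4 and 12.1 CPM. NDUFS6, of the NADH-oxidising module, fell from 36.2 and 33.3 CPM to 19 and 17.1 CPM. The groups of these 3 genes did not overlap, and after background subtraction NDUFS4 remained called at -1.60 while NDUFB1 (0.10) and NDUFS6 (-0.07) were not. NDUFS4 was called in 12 of the 14 fits, and not with library totals alone (-0.44, adjusted p = 0.120) or without auxin replicate 1 (adjusted p = 0.059). NDUFB1 and NDUFS6 were each called in 9 of 14, and not without auxin replicate 1 or without auxin replicate 2.

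NDUFA5 (chr7:123536998-123601651, minus strand, hg38) was the gene that rose. It had 34.2 and 44.3 CPM in the controls and 115 and 84.5 CPM after auxin, so that both auxin libraries were above both controls. The rise was 2.54-fold (1.35 ± 0.25, adjusted p = 0.0135) and 2.41 on the log2 scale after background subtraction. Without auxin replicate 1 it was not called (1.21, adjusted p = 0.067). IQUB, the next gene downstream on the same strand at a distance of 2333 bp and chosen after its values were seen, had 6.32 and 10.6 CPM in the controls and 98.4 and 72.6 CPM after auxin (3.34, adjusted p = 0.0045). Whether reads of both genes belong to 1 transcript was not tested.

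The NDUFB family, which forms much of the membrane arm, had 1 of 11 genes called, against 67.3% of all genes, and a median of 0.29. After background subtraction 9 of its 11 genes were called higher and 0 lower, with a median of 1.32, against 27.7% and 32.1% of all genes. Complex IV, with 10 of 10 genes, and ATP synthase, with 11 of 13, were then also mostly called higher. The NDUFA family had 1 gene called higher and 1 lower of 13 and a median of 0.16, and after subtraction 10 called higher and 1 lower. NDUFC2-KCTD14 had 2.61 and 4.42 CPM in the controls and 6.85 and 10.0 CPM after auxin, without overlap and not called (1.26, adjusted p = 0.055), and its value after subtraction was -0.04.

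The assembly factors were mostly lower. Of 7 genes, 4 fell (57.1%), 3 were not called and none rose, against 67.3% of all genes called and 35.0% called lower. Their median was -1.24, and in 6 of 7 both auxin libraries were below both controls, against 46.3% of all genes. NDUFAF5 (chr20:13785026-13818421, plus strand, hg38), which hydroxylates an arginine of NDUFS7, had 45.0 and 46.4 CPM in the controls and 12.8 and 14.8 CPM after auxin. It fell 3.32-fold (-1.73 ± 0.20, adjusted p = 0.0051), and replicates of each group lay close together. NDUFAF6, which acts early in assembly, had 58.7 and 60.0 CPM in the controls and 18.2 and 18.1 CPM after auxin. Its replicates were nearly equal, and it fell 3.27-fold (-1.71 ± 0.17, adjusted p = 0.0043).

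NDUFAF2, a chaperone of late assembly and the longest of the 46 genes, had 199 and 192 CPM in the controls and 68.4 and 94.3 CPM after auxin. It fell 2.40-fold (-1.26 ± 0.21, adjusted p = 0.0112), with more spread between auxin libraries than between controls, and was not called with library totals alone (adjusted p = 0.070) or without auxin replicate 1 (adjusted p = 0.053). NDUFAF7, a methyltransferase of the mitochondrial matrix, had 67.1 and 76.0 CPM in the controls and 31.4 and 29.1 CPM after auxin. NDUFAF7 fell 2.36-fold (-1.24 ± 0.17, adjusted p = 0.0072), and its value after background subtraction was -0.22, which was not called. NDUFAF1, a factor for the membrane arm, and NDUFAF3 and NDUFAF4, a pair that acts on the ubiquinone module, were not called, at -0.44 ± 0.22, 0.33 ± 0.30 and -0.71 ± 0.45. Of 11 assembly factors of complex I without the NDUF prefix, such as ACAD9 and ECSIT, 6 were called lower and 0 higher, against 35.0% and 32.2% of all genes. Their median was -0.61. After background subtraction 3 were lower and 1 higher, against 32.1% and 27.7% of all genes, with a median of 0.17.

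Several of the genes that fell lay near the background after auxin. Reads over the background density were 6.29 times and 3.48 times it at the median NDUF gene in auxin replicates 1 and 2, and 1.90 and 1.5 times at the median assembly factor. In both auxin libraries 7 NDUF genes were under 2 times the background, namely NDUFAF2, NDUFAF4, NDUFAF5, NDUFAF6, NDUFS4, NDUFA4L2 and NDUFC2-KCTD14, and in the controls 0 were. NDUFAF2 was at 1.16 and 1.12 times, NDUFAF5 at 1.35 and 1.09 times and NDUFS4 at 1.45 and 1.28 times, so that most of their reads after auxin were at the level of silent genes. NDUFV2 was at 3.35 and 2.02 times and NDUFV1 at 48.7 and 26.9 times. Subtraction enlarged the fall of NDUFAF2 to -2.90 and of NDUFAF5 to -3.06, and changed the sign of 16 NDUF genes, while 0 genes were called in opposite directions with and without it and 8 were called in both.

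Span moved with the change. Of 11 NDUF genes with a span of at least 30 kb, 6 fell and 1 rose, with a median of -1.08 against -0.37 for all genes of such spans, of which 78.8% were called. Of 35 shorter NDUF genes, 5 fell and 0 rose, with a median of 0.16 against 0.20 for all shorter genes, of which 57.5% were called. The Spearman rho between span and log2 fold change was -0.47 over the 46 genes and -0.57 after background subtraction, against -0.14 over all genes tested, given as a description since genes share libraries. NDUFA5, with a span of 64654 bp, was the long gene that went up, whereas NDUFV2 with 31716 bp had the largest fall before subtraction. The part of span, and of background reads that grow with it, was not tested.

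**Figure D3:**
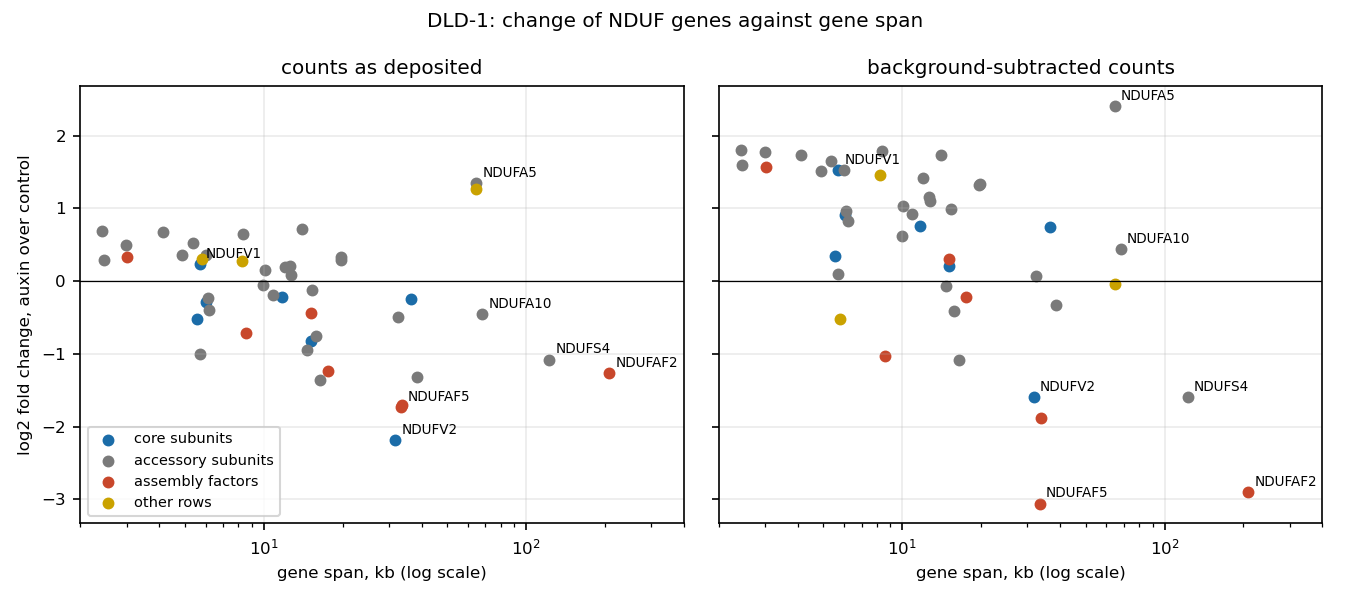
Log2 fold change of the 46 NDUF genes in DLD-1, auxin over control, against gene span in kb on a log axis, from counts as deposited on the left and after background subtraction on the right; points are genes coloured by group. On the left, the 35 genes under 30 kb have a median of 0.16 and the 11 longer ones of -1.08, and NDUFA5 is at the top of both panels.

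In the other complexes of the respiratory chain, the nuclear genes were counted in the same way, against 67.3% of all genes called, 32.2% higher and 35.0% lower. Complex IV had 4 of 10 genes called, all higher, with a median of 0.49, complex III 1 higher and 1 lower of 9 (0.05), complex II 1 lower of 4 (-0.14) and ATP synthase 2 lower of 13 (0.15). Genes of mitochondrial ribosomal proteins were called lower in 39 of 76 and higher in 0, with a median of -0.81, and those of cytoplasmic ribosomal proteins higher in 34 and lower in 1 of 82, with a median of 0.59. After background subtraction the medians were 1.69 for complex IV, 1.19 for complex III, 0.62 for complex II, 1.28 for ATP synthase, -0.09 for mitochondrial ribosomal proteins (15 called higher and 19 lower of 75), 1.83 for cytoplasmic ribosomal proteins (75 higher and 0 lower of 78) and 0.74, 1.10 and -1.03 for core subunits, accessory subunits and assembly factors of complex I. Of 11 regulators of mitochondrial genes, 6 fell and 1 rose. The gene that rose, PPARGC1A, was at 1.18 to 1.37 times the background in the DLD-1 libraries. After background subtraction 6 regulators were called lower and 3 higher, the latter GABPB1 (1.11), TFAM (1.48) and PPARGC1A (3.31). NRF1 and YY1, transcription factors known to act on mitochondrial genes, had log2 fold changes of -1.10 and -1.15. After background subtraction they had -0.86 and -0.36, the latter not called (adjusted p = 0.055).

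**Figure D4:**
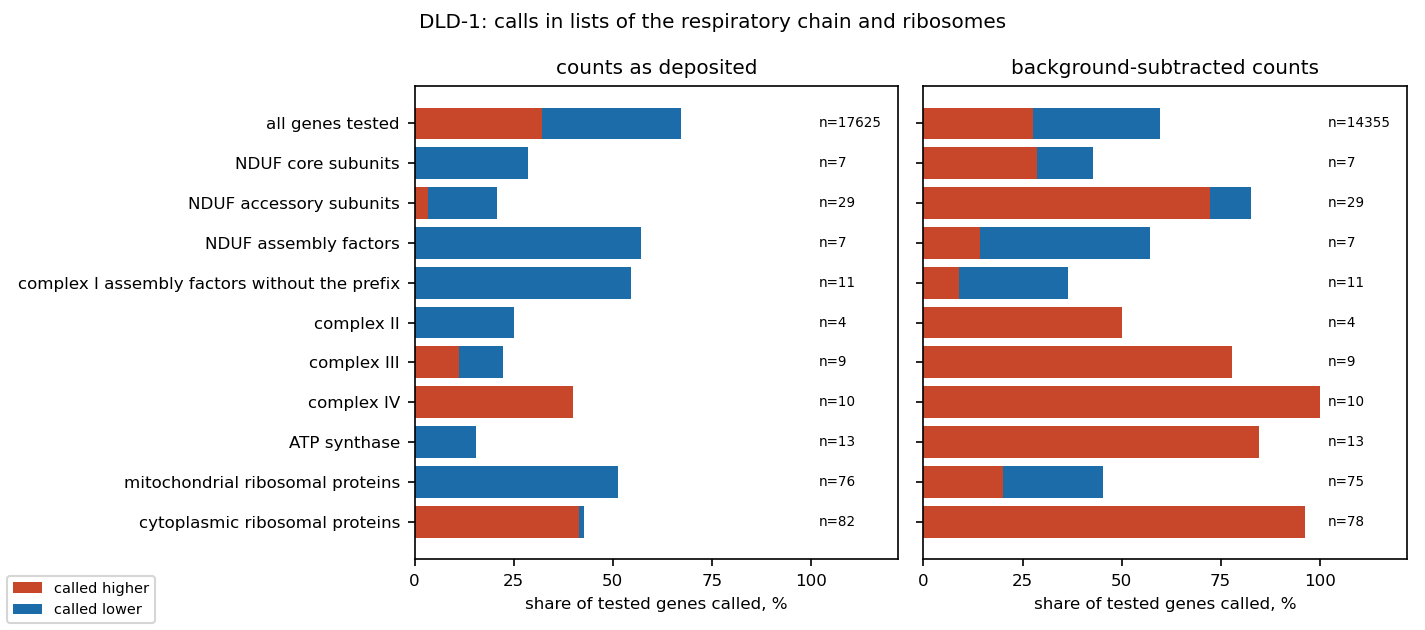
Share of tested genes called higher (red) or lower (blue) after auxin in DLD-1, in percent, for all genes and for lists of complex I, the other respiratory complexes and ribosomal proteins, from counts as deposited on the left and after background subtraction on the right; n is the number of genes tested. Assembly factors had 4 of 7 called lower on the left and 3 of 7 on the right, against 35.0% and 32.1% of all genes. Core and accessory subunits gained calls in the higher direction on the right.

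Promoter sequences from RefSeq (GRCh38.p14, 250 bases before to 50 after the start) were found for 39 of the 46 genes. They were searched on both strands for NRF1 (the letters in capitals in the first 3 windows), YY1 (AAGATGGC), ETS (CCGGAAGT) and SP (GGGCGG) letters, which are known from nuclear genes of the respiratory chain. The YY1 letters were in 7 of the 39 genes (17.9%), against 4.88% of the genes in the count tables with a promoter and 2.89% of all promoters. The NRF1 letters were in 3 genes, against 2.0% of table genes and 1.24% of all promoters, the ETS letters in 2 genes, NDUFS1 and NDUFA13 (5.13%), against 7.14% of table genes and 4.14% of all promoters, and the SP letters in 25 of 39 genes, against 65.9% of table genes. Of the 3 genes with NRF1 letters and the 7 with YY1 letters, 3 fell in DLD-1, NDUFAF5, NDUFA9 and NDUFS4. Among all NDUF genes 11 of 46 were called lower, and among all genes 35.0%. A link between these letters and the change was not tested. The windows with NRF1 and YY1 letters are shown with the matched letters in capitals, each given 5′ to 3′ on the strand of the gene.
NDUFAF5 (chr20:13785014-13785043, plus): agccgcgctgGCGCATGCGCacaaaaagcg
NDUFA8 (chr9:122159764-122159793, minus): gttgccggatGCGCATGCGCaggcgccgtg
NDUFB4 (chr3:120596167-120596196, plus): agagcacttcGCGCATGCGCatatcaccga
NDUFA9 (chr12:4649113-4649142, plus): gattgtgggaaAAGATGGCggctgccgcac
NDUFS4 (chr5:53560649-53560678, plus): ttgcctgcagcAAGATGGCggcggtgtcaa
NDUFB8 (chr10:100529836-100529865, minus): tgaagaaggtgAAGATGGCggtggccaggg
NDUFS7 (chr19:1383913-1383942, plus): aggccgaggccAAGATGGCggtgctgtcag
NDUFA7 (chr19:8321343-8321372, minus): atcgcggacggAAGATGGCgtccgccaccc
NDUFA3 (chr19:54102865-54102894, plus): ccgcggagacaAAGATGGCtgcgagtaagt
NDUFA6 (chr22:42090729-42090758, minus): gatgctttggcAAGATGGCggggagcggcg

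All 7 YY1 matches read in the direction of the gene and began 11 to 26 bases after the start used for the promoter. From that start, the NRF1 matches of NDUFAF5 and NDUFA8 began at -4 and that of NDUFB4 at -159. The start used for the promoter differed from that of the counted gene model in some genes, NDUFA6, NDUFB8 and NDUFB4 among them. Among those with YY1 letters, NDUFA9 (-1.32) and NDUFS4 (-1.08) fell, and NDUFB8 (-0.40), NDUFS7 (-0.22), NDUFA7 (0.16), NDUFA6 (0.52) and NDUFA3 (0.67) were not called. Among those with NRF1 letters, NDUFAF5 (-1.73) fell, and NDUFA8 (-0.75) and NDUFB4 (-0.23) were not called. NDUFV2 held SP letters and none of the other 3 motifs.

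In HCT116, the group labelled TOP2B-/- was compared with the TOP2A-mAID controls. NDUFAF5 fell, and the other 45 NDUF genes were not called, against 3.41% called of 15273 genes tested (1.66% lower, 1.75% higher). Without control replicate 1 the number of NDUF genes called was 6, against 16% of all genes, and without either library labelled TOP2B-/- it was 0, as it was over all genes by edgeR (6 and 1 NDUF genes at an unadjusted p under 0.05). NDUFAF5 had 78.3 and 80.8 CPM in the controls and 51.3 and 52.6 CPM in the group labelled TOP2B-/-. Replicates lay close together and the groups were well apart, and the fall was 1.53-fold (-0.62 ± 0.04, adjusted p = 0.0254). NDUFAF5 is on chromosome 20, where 133 of 405 genes tested were called, all lower, with a median of -0.56. It was not called without replicate 1 of the group labelled TOP2B-/- (adjusted p = 0.210) or replicate 2 (adjusted p = 0.265), with the replicate number as a block (adjusted p = 0.175), or in the fit over all 8 libraries (adjusted p = 0.418). Of all genes in HCT116, the fit with the block called 0.0% and that over all 8 libraries 0.0281%. In DLD-1, genes of chromosome 20 had a median of 0.21 after auxin and of -0.44 after background subtraction, and NDUFAF5 had -1.73 and -3.06.

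The 46 genes had a median log2 fold change of -0.12 in HCT116, against 0.03 for all genes. CPM of the groups did not overlap in 25 genes, 15 lower and 10 higher, against 55.3% of all genes (27.6% lower and 27.6% higher). By DESeq2, 3 NDUF genes were called, all lower, against 10.2% of all genes called and 5.88% called lower. After background subtraction 3 were called, 2 lower, NDUFAF5 among them, and NDUFAF6 higher, against 16.9% of all genes (8.36% lower and 8.5% higher). Core subunits had a median of -0.37, with 6 of 7 below 0 and none called. NDUFV1 had 92.2 and 119 CPM in the controls and 88.5 and 72.7 CPM in the other group (-0.39 ± 0.17, adjusted p = 0.282). NDUFS7 (-0.50 ± 0.22), NDUFS3 (-0.37 ± 0.15), NDUFS1 (-0.18 ± 0.06) and NDUFS8 (-0.15 ± 0.20) were also not called. NDUFV2, one of the genes that fell in DLD-1, had 168 and 171 CPM in the HCT116 controls and 174 and 179 CPM in the group labelled TOP2B-/- (0.06 ± 0.04, adjusted p = 0.453), a narrow range over all 4 libraries.

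Accessory subunits had a median of -0.11 in HCT116 and assembly factors one of 0.08. NDUFAF6 had 47.3 and 48.2 CPM in the controls and 55.6 and 55.3 CPM in the group labelled TOP2B-/-, without overlap and not called (0.22 ± 0.04, adjusted p = 0.091). The other assembly factors lay between -0.47 for NDUFAF3 and 0.17 for NDUFAF7. The highest values among the 46 genes were 0.49 ± 0.57 for NDUFA4L2 and 0.27 ± 0.31 for NDUFC2-KCTD14, and neither was called. NDUFA5 had 27.5 and 30.6 CPM in the controls and 29.9 and 30.1 CPM in the other group. Complexes II, III and IV, ATP synthase, both ribosomal lists, the other complex I assembly factors and the regulators had 0 genes called in HCT116.

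HCT116 control 2 stood apart from control 1. It was higher than control 1 in 41 of the 46 NDUF genes, with a median log2 ratio of 0.20, and this ratio had a Spearman rho of -0.71 with gene span. These values were not computed over all genes, so whether they are particular to the NDUF genes was not tested. The log2 fold change in HCT116 had a rho of 0.46 with span over the 46 genes and of 0.41 over all genes. The median log2 ratio of the 46 genes was 0.046 and 0.0022 for the libraries labelled TOP2B-/- against control 1, and -0.17 and -0.21 against control 2. In the fits with 1 control left out, the NDUF median was -0.035 without control 2 and -0.21 without control 1. Whether the change of an NDUF gene differed between DLD-1 and HCT116 was not tested, since the lines were treated differently and the tables were separate.

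**Figure D5:**
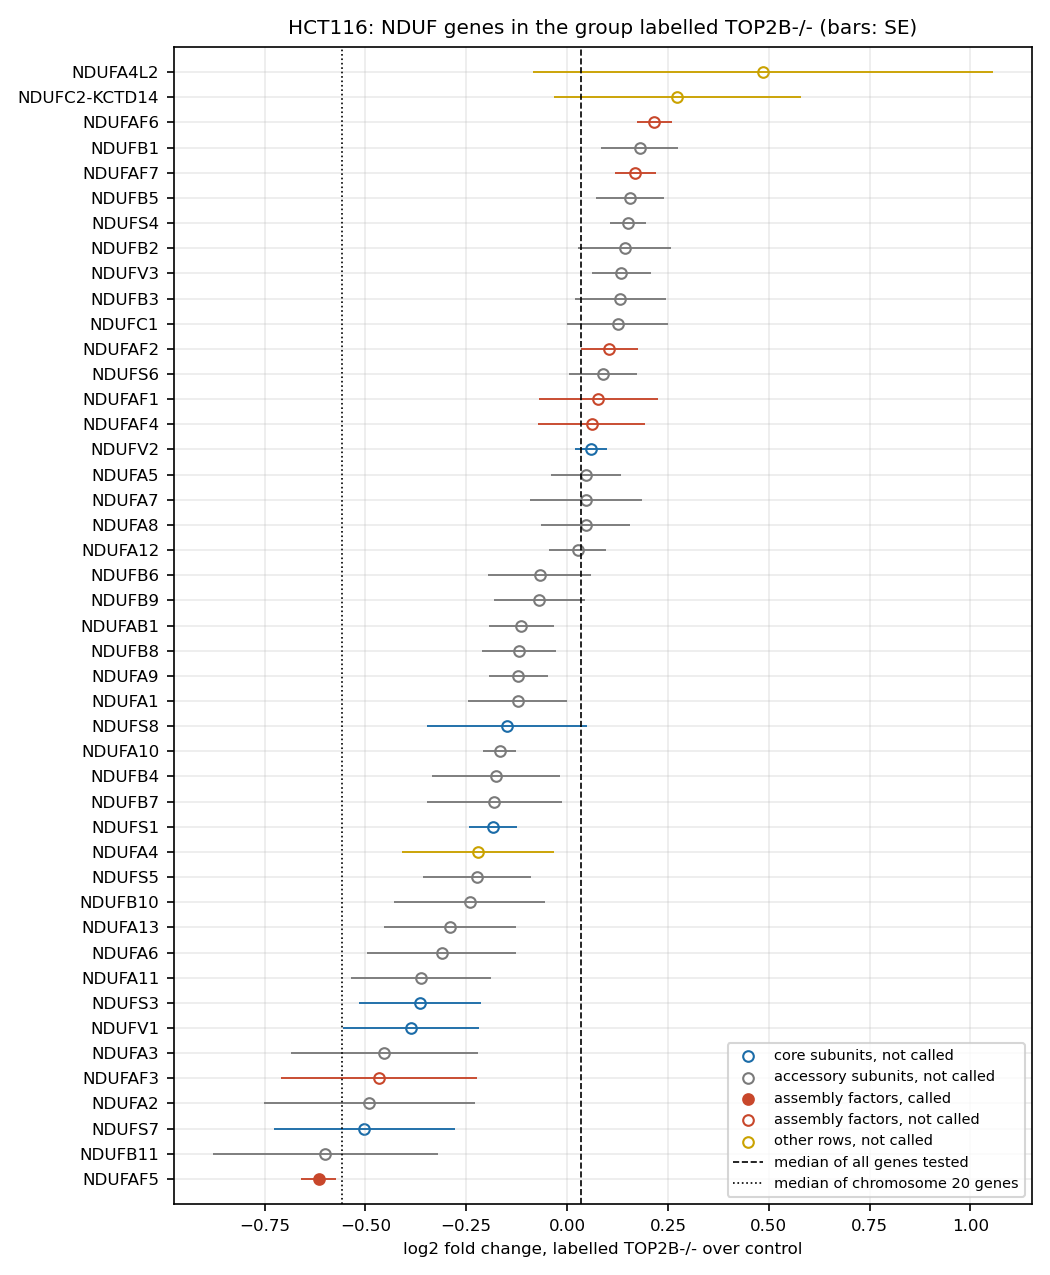
Log2 fold change of 45 NDUF genes in HCT116, group labelled TOP2B-/- over TOP2A-mAID control, with bars of 1 standard error and colours for the group of the gene. NDUFAF5 (filled, -0.62) was called and lies next to the dotted line, the median of chromosome 20 genes (-0.56), while the dashed line is the median of all genes tested (0.03).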

How the data were processed

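Raw counts per gene for 18638 RefSeq models on hg38 were deposited by the authors in 1 table per cell line. The submitters' processing notes name STAR and DESeq2. Versions, strand use and counting settings were not given in the sources used here. The supplied paper describes another experiment, and its design was not used. The authors' tables of changed genes (fold changes, p-values and normalized values) were not used. The members and lists were chosen with earlier results of these data known.

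Groups came from the sample labels, with the HCT116 group in conflict defined by genotype. Each line was fitted on its 4 libraries with edgeR 4.0.16 in R 4.3.3 (filterByExpr, TMM, quasi-likelihood test, 2 residual degrees of freedom, two-sided), with Benjamini-Hochberg adjustment over all genes at 0.05 and standard errors derived from the F statistic. An exact permutation test of 2 against 2 libraries cannot give p below 0.333. Scripts were tested on simulated data.

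Background density was the median reads per base of the 20% of genes of at least 5000 bp with the lowest control density in the other line. This density times counted length was subtracted, with a floor of 0. Alternatives were DESeq2 1.42.0, other scalings and filters, subtraction, a fit over 8 libraries, the replicate number as a block, and leaving out each library. Genes named individually were core subunits, assembly factors, the 5 largest changes called in each direction, and the highest and lowest levels. NDUFS4, NDUFB1, NDUFS6 and genes with motif matches were added as called genes or motif holders after values were seen. Values of 1 member are not reported here, and it is counted in totals and medians.

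The replicate numbers were not stated to mark a shared batch. Counted length was shorter than span for NDUFC2-KCTD14 and NDUFS8. Another gene model overlapped 7 members, NDUFC1, NDUFA2, NDUFC2-KCTD14, NDUFA1, NDUFS3, NDUFA4L2 and NDUFAF3, and their reads could not be separated from those of the overlapping gene.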

Additional observations from a re-analysis of the deposited data

How the results depend on the processing

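The share of all genes called is given in brackets for each fit that kept all libraries. In DLD-1 the 12 calls (67.3%) became 27 with library totals alone (62.0%), 21 with upper-quartile factors (63.0%) and 23 with a mean CPM of at least 5 (65.6%). They became 32 after background subtraction (59.8%) and 19 in the fit over all 8 libraries (66.9%). In the same order, the median of -0.16 became 0.48, 0.32, 0.20, 0.87 and 0.049. Without 1 library, the number of calls also varied, as given above, and the median ranged from -0.16 to -0.019. Of the 46 genes, 16 did not keep 1 sign over all fits in DLD-1 and 12 did not in HCT116. Among the core subunits and assembly factors named in the report, some values that were below 0 and not called turned positive. With library totals these were NDUFS1 (0.40), NDUFS3 (0.13), NDUFS7 (0.43), NDUFS8 (0.35) and NDUFAF1 (0.19). With upper-quartile factors they were NDUFS1 (0.24), NDUFS7 (0.26), NDUFS8 (0.18) and NDUFAF1 (0.031). With a mean CPM of at least 5 they were NDUFS1 (0.14), NDUFS7 (0.18) and NDUFS8 (0.10). After background subtraction they were NDUFS1 (0.74), NDUFS3 (0.35), NDUFS7 (0.75), NDUFS8 (0.91) and NDUFAF1 (0.30). NDUFS1 ranged from -0.55 to 0.15 without 1 library (0.15 without control replicate 1, 0.0042 without auxin replicate 2).

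In HCT116 the 1 call (3.41%) became 3 with DESeq2 (10.2%) and 3 with a mean CPM of at least 5 (10.9%). It became 3 after background subtraction (16.9%) and 0 in the fit over all 8 libraries (0.0281%). In that last fit 1 NDUF gene had an unadjusted p under 0.05. Without 1 library, calls ranged from 0 to 6, with 6 without control replicate 1 and 0 without either library labelled TOP2B-/- (6 and 1 genes at an unadjusted p under 0.05). Among the same genes and NDUFA4L2, leaving out 1 library turned signs for NDUFS8 (-0.40 to 0.032), NDUFAF4 (-0.045 to 0.10), NDUFAF1 (-0.045 to 0.14), NDUFAF2 (-0.040 to 0.18) and NDUFA4L2 (-0.066 to 0.86), and these were not called with all libraries. The causes were not tested.

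Same-numbered libraries deviated together in DLD-1 (r = 0.56) and oppositely in HCT116 (r = -0.82). The labels do not say that a number marks a shared culture or batch, and with 2 pairs a line this was not tested further. With the replicate block, 14 NDUF genes were called in DLD-1, against 73.5% of all genes. In HCT116 the block fit called 0 NDUF genes (5 at an unadjusted p under 0.05) and 0.0% of all genes. Crossed pairing in HCT116, chosen after seeing the data, called 4 NDUF genes and 1808 genes in all, 11.8% of those tested. In both auxin libraries 7 NDUF genes were under 2 times the background, which limits their values.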
